A study of Drosera capensis with 12 samples.

Results

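In the sundew Drosera capensis (Cape sundew), 13 transcript features had higher levels in traps closed by glutathione than in their mock traps and lower levels in traps closed on living flies than in theirs. They were picked from the 397048 features of a de novo transcript assembly by the measured values themselves, so the values given for these 2 comparisons describe the choice and are no test of it. The abundance unit is TPM, a value scaled to the library's total. The change is the log2 ratio of mean TPM + 1 between closed and mock traps, minus the median of that ratio over the 30755 features above 0 in all 12 libraries. A member had a mean over the 6 mock libraries from 5 to under 300 TPM, a change of at least 0.5 after glutathione and of at most -0.5 after flies. In both comparisons the TPM of its 3 closed libraries and 3 mock libraries did not overlap. The features fall in 13 separate assembly clusters, and the files pair none of them with a gene name. Members are numbered here from 1 to 13 by the smaller of their changes, and 4 are given by their assembly ID.

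The groups were 3 libraries each of traps that closed after glutathione (GSH) at 100 mM was put on the petiole, of mock traps without a small molecule, of traps closed on living fruit flies, and of unstimulated traps that served as the mock of the fly experiment. All were leaf RNA of the same species. Another label of the fly-closed libraries names GSH as the agent, against their titles and sample codes, and the titles were followed. Plant line, plant age, the time from stimulus to harvest and the number of plants in a sample are not given by the sources used here. Nothing says that a group's samples were from different plants, so the calls below rest on a spread between samples that may be only technical.

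Sundews are carnivorous plants that catch insects on leaves covered with sticky tentacles. When prey struggles, the tentacles and then the leaf blade bend around it, jasmonate signalling starts in the trap, and digestive enzymes are secreted. Glutathione is a thiol tripeptide that buffers the redox state of plant cells and serves in detoxification, and in Arabidopsis, supplied from outside, it can evoke calcium signals through glutamate receptor-like channels. Which of these functions, if any, the 13 features belong to is unknown from the files.

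Library sums were between 17708252 and 20453078, but these total rescaled values and do not show how many reads stand behind a feature. The libraries of the GSH experiment had 59804 to 63088 features above 0 and those of the fly experiment 74756 to 86499. Features seen in one group alone held 2.41% to 5.11% of TPM in the GSH mock and 3.97% to 4.32% in GSH-closed traps. In the fly mock they held 10.2% to 12.8%. The share was 17.6%, 10.8% and 8.71% in fly-closed replicates 1, 2 and 3. TPM are shares of a library, so these features lower the TPM of all others by unequal amounts, most of all in fly-closed replicate 1. The median subtracted from each change was -0.34 after GSH and -0.02 after flies.

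Opposite changes were rare, and so were decreases after flies by the rule's limits. Of the 20498 features in the abundance window, 2239 met the limits of size and overlap for a rise after GSH, and 305 met those for a decrease after flies. The 13 members make up 0.581% of the former and 4.26% of the latter. Of the 305 features lower after flies, 82 (26.9%) were lower after GSH by the same limits, and 210 met the GSH limits in neither direction. Of the 2239 higher after GSH, 661 (29.5%) were also higher after flies and 1565 (69.9%) met the fly limits in neither direction. Shares of the whole window to set beside 26.9% and 29.5% are not given here. The mirror image, lowered by GSH and raised by flies, had 20 features.

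**Figure D1:**
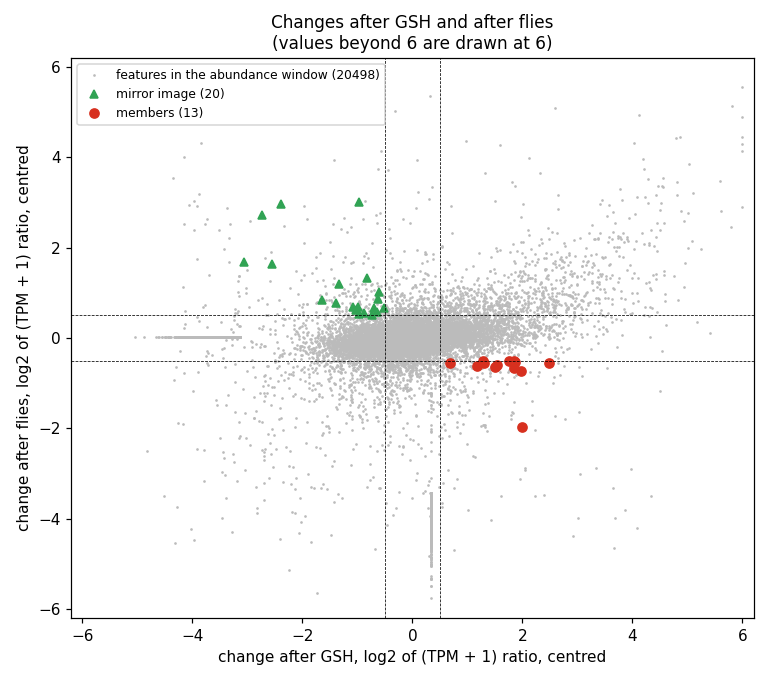
Change after GSH (horizontal) and after flies (vertical) of the 20498 features in the abundance window, as centred log2 ratios of mean TPM + 1, with dashed lines at the limits of 0.5 and -0.5. The 13 members (circles) lie to the lower right, 12 of them with a fly change between -0.72 and -0.51, and the 20 features of the mirror image (triangles) to the upper left. Short straight streaks of points are features listed at 0 throughout one experiment.

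With no condition on overlap, 220 window features changed in opposite directions by size, of which 35 had GSH groups apart and 51 had fly groups apart. In the window as a whole, closed libraries lay above all mock libraries after GSH in 11.1% of features and below all mock libraries after flies in 12.2%. Another 38 features missed membership only through overlap in the GSH experiment, 22 only through overlap in the fly experiment and 70 only through the size of the fly change. No feature missed it through the size of the GSH change alone, and 27 missed it only because their mock level was under 5 TPM. The former had little room to occur, since centring adds 0.34 to each GSH change while overlap is judged without it. Of the 2273 window features with GSH-closed libraries above all mock libraries, 2239 met the size limit. At the edge, the members with the smallest fly change had -0.51, and the nearest features outside had -0.48 and -0.39.

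The GSH side of the members was large and the fly side small. The change after GSH ranged from 0.69 to 2.48 with a median of 1.76, against a median of -0.13 over the window, and was above 1 in 12 of 13 members. The change after flies ranged from -1.96 to -0.51 with a median of -0.55, against -0.04 over the window. It lay between -0.6 and -0.5 in 8 members and below -1 in 1. In mean TPM without centring, the members were 1.33 to 4.49 times their mock after GSH, and their fly mock was 1.47 to 4.89 times the fly-closed level. The centred GSH change was the larger in size in all 13. Without centring this did not hold for members 1 and 7. Member 1 was 3.22-fold higher after GSH and 4.89-fold lower after flies, and member 7 was 1.33-fold higher and 1.63-fold lower. In the other members the GSH ratio was the larger without centring too.

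**Figure D2:**
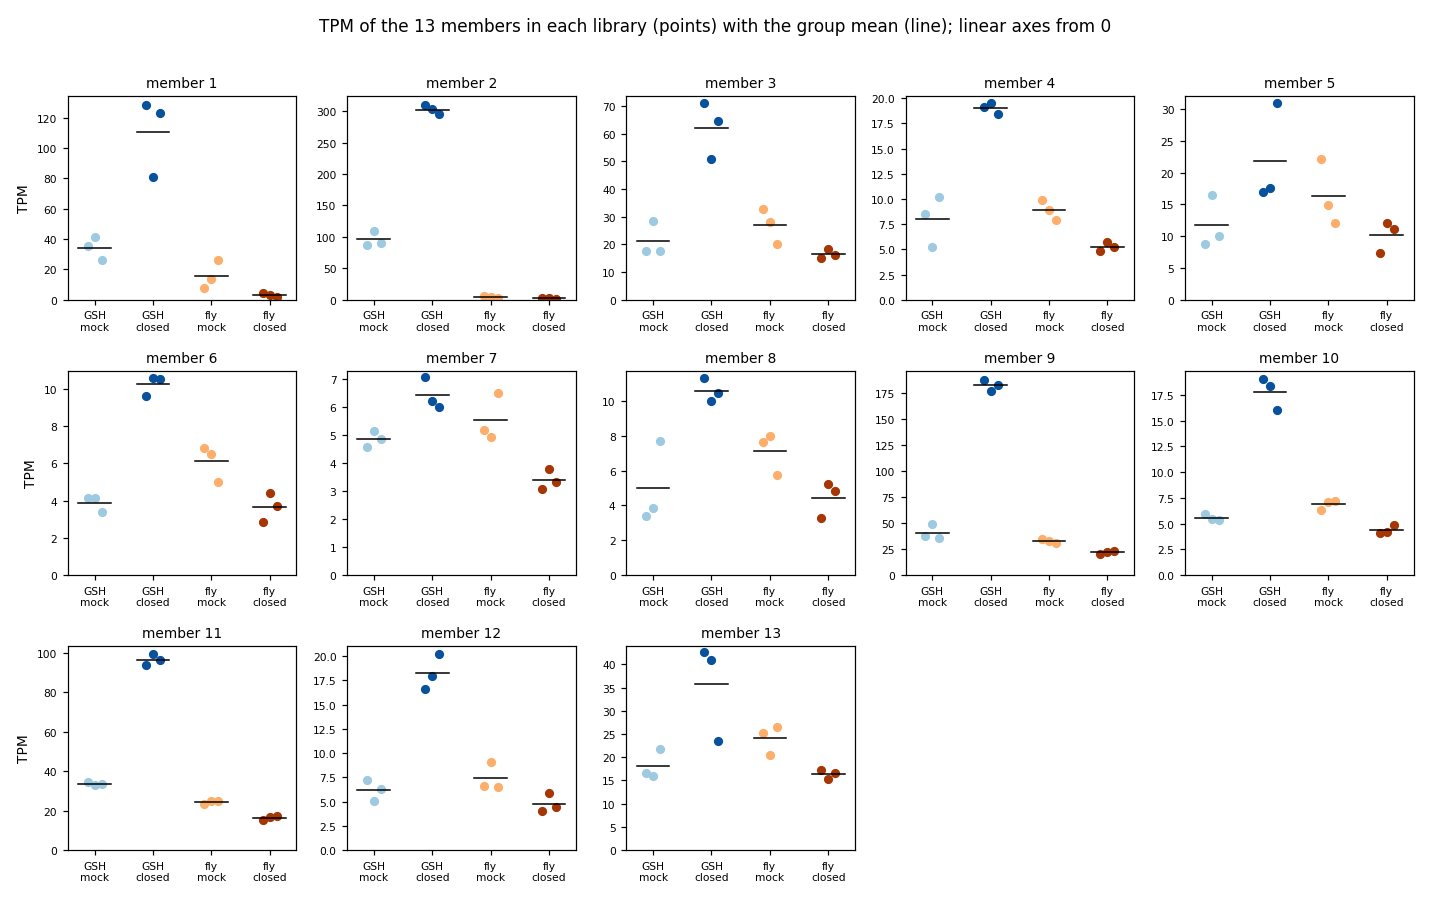
TPM of each member in the 12 libraries, with points for libraries, a line for the group mean and linear axes from 0 that differ between panels. The GSH-closed mean is the highest and the fly-closed mean the lowest of the 4 groups in all 13 panels.

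Member 1, TRINITY_DN9692_c0_g1, had the largest change in the fly experiment and was the one member past a limit of 1 in both. Its TPM were 35.2, 41.4 and 26.4 in the GSH mock and 128, 80.6 and 123 in GSH-closed traps. In the fly experiment it stood at 7.48, 13.4 and 26.0 in the mock and 4.53, 3.25 and 1.80 in closed traps. All 6 libraries of the GSH experiment lay above all 6 of the fly experiment for this feature. The means were 34.3 ± 7.55 and 111 ± 26.2 TPM around GSH, and 15.6 ± 9.43 and 3.19 ± 1.37 TPM around flies (SD, n = 3), changes of 2.00 and -1.96. The fly mock libraries were spread widely, with an SD of 60.4% of the mean, the highest among the members' groups. Without fly mock replicate 3, the highest of them, the limma estimate of the fly change went from -1.86 to -1.42. Its fly call was lost in 7 of 18 alternative fits, this one included.

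TRINITY_DN7782_c1_g1, member 2, was the most abundant and the most unequal between the experiments. The GSH mock libraries had 87.7, 110 and 91.0 TPM of it, and those of GSH-closed traps 309, 304 and 295 TPM. In the fly experiment it was close to or under the window's lower limit of 5 TPM, with 5.56, 4.36 and 3.43 TPM in the mock and 2.47, 2.34 and 1.96 TPM in closed traps. Its changes were 1.98 and -0.72, and its fly call was lost in 6 of 18 alternative fits. Traps without a stimulus thus differed 21.6-fold in mean TPM between the experiments, more than either stimulus moved the feature. Only 7 of the 16963 window features above 0 in all 12 libraries, member 2 among them, had a ratio of GSH mock to fly mock this high. Between the closed groups the ratio was 134, reached by 2 of those features including this one. Its mean in the fly mock, 4.45 ± 1.07 TPM (SD, n = 3), was itself under 5, so it entered the window through the GSH mock.

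Member 9, TRINITY_DN97205_c0_g1, had the largest change after GSH. It rose from 37.5, 49.0 and 35.1 TPM to 187, 176 and 182 TPM, a change of 2.48. The SD of the closed libraries was 3.08% of their mean. In the fly experiment the libraries read 34.7, 32.7 and 30.2 TPM in mock traps and 20.0, 21.5 and 23.3 TPM in closed traps, a change of -0.55 whose call was lost in 12 of 18 alternative fits. The mock groups were close here, at 40.5 ± 7.43 and 32.5 ± 2.27 TPM (SD, n = 3), although no library of the GSH mock lay within the range of the fly mock.

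The steadiest feature was member 11, TRINITY_DN30539_c0_g2. Its GSH mock libraries had 34.3, 32.8 and 33.3 TPM and its GSH-closed libraries 93.7, 99.2 and 96.4 TPM. The fly mock gave 23.1, 24.9 and 24.7 TPM and fly-closed traps 15.1, 16.8 and 17.1 TPM. Relative to the mean, the SD of its groups ran from 2.16% in the GSH mock to 6.48% in fly-closed traps. The changes were 1.84 and -0.52, and the fly call was kept under every one of 18 alternative fits.

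Members 3, 5 and 13 were of middle abundance and more scattered within groups. Member 3 had 17.6, 28.4 and 17.7 TPM in the GSH mock, 71.0, 51 and 64.6 in GSH-closed traps, 33.0, 28 and 20.3 in the fly mock and 15.1, 18.4 and 16.2 in fly-closed traps. Member 5 had 8.79, 16.6 and 10.01 TPM, then 17.0, 17.7 and 30.95, against 22.1, 15.0 and 12.1 in the fly mock and 7.37, 12.04 and 11.1 in fly-closed traps. Its closed and mock libraries were apart by the narrowest margins among the members, 0.04 after GSH and 0.01 after flies in log2(TPM + 1). For member 13 the libraries had 16.7, 16.0 and 21.8 TPM, then 42.6, 41.0 and 23.5, against 25.2, 20.5 and 26.4 in the fly mock and 17.3, 15.3 and 16.6 in fly-closed traps. GSH-closed replicate 3 of member 13 sat within the range of its fly mock, as did at least 1 GSH-closed library of members 5 and 7.

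The other 6 members were low, with means over the 12 libraries from 5.06 to 10.3 TPM. Member 4 had 8.50, 5.24 and 10.2 TPM in the GSH mock, 19.1, 19.5 and 18.4 in GSH-closed traps, 9.94, 8.92 and 7.90 in the fly mock and 4.82, 5.69 and 5.28 in fly-closed traps. Member 10 went from 5.94, 5.40 and 5.34 TPM to 19.1, 18.4 and 16.0 after GSH, and read 6.31, 7.14 and 7.24 in fly mock and 4.11, 4.21 and 4.86 in fly-closed traps. In member 12 the values were 7.24, 5.08 and 6.28 TPM, then 16.6, 17.9 and 20.2, against 6.59, 9.04 and 6.52 and then 4.04, 5.88 and 4.46. These 3 members rose 2.38-fold to 3.21-fold in mean TPM after GSH, while all their libraries in the fly experiment read under 10 TPM.

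Members 6, 7 and 8 were lower still, with at least one mock mean under 5 TPM. Member 6 read 4.15, 4.16 and 3.37 TPM in the GSH mock, 9.64, 10.6 and 10.5 in GSH-closed traps, 6.84, 6.50 and 5.02 in the fly mock and 2.86, 4.38 and 3.72 in fly-closed traps. Member 8 read 3.41, 3.87 and 7.68 TPM, then 11.3, 10.02 and 10.5, against 7.63, 7.97 and 5.74 and then 3.29, 5.23 and 4.82. Member 7 had the smallest GSH change, 0.69, from 4.56, 5.14 and 4.88 TPM to 7.10, 6.22 and 6 TPM. The centring contributes 0.34 of that change, and without it member 7 no longer met the rule. Its fly values were 5.18, 4.95 and 6.52 TPM in the mock and 3.07, 3.78 and 3.34 TPM in closed traps.

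The highest and the lowest group were the same in every member. GSH-closed traps had the highest mean and fly-closed traps the lowest in 13 of 13 members, an order that 4.20% of window features had. The rule nearly fixes this order unless the mocks are far apart. In 9 members the mean of the fly mock lay above that of the GSH mock, and in members 1, 2, 9 and 11 it lay below. Single libraries of the mock groups overlapped in 7 members, were higher throughout in the fly mock in members 6 and 10, and higher throughout in the GSH mock in those 4. GSH-closed libraries were above all fly mock libraries in 10 members. Fly-closed libraries were below all GSH mock libraries in 6 members and overlapped them in 7.

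**Figure D3:**
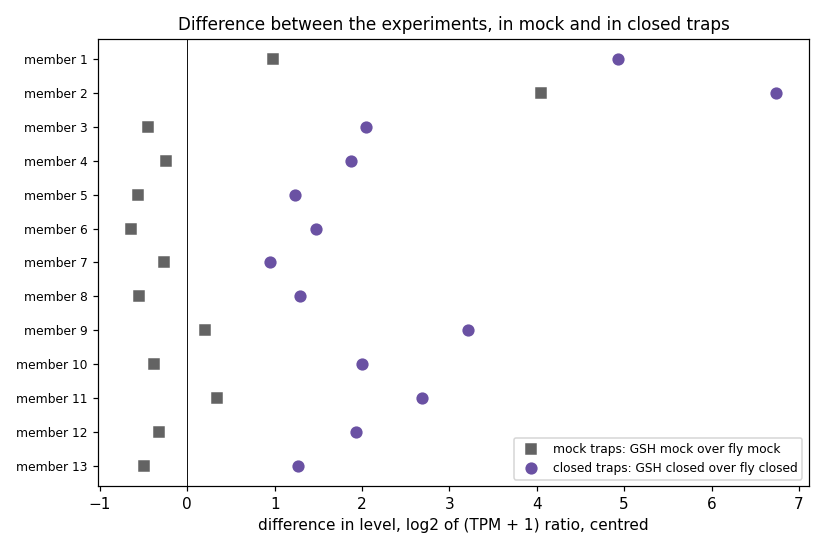
Difference between the experiments for each member, as centred log2 ratios of mean TPM + 1, in mock traps (squares, GSH mock over fly mock) and in closed traps (circles, GSH closed over fly closed). The closed traps differ by 0.95 to 6.74 in all 13, whereas the mock traps differ by less than 1 except in member 2, at 4.05.

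Since the mock groups took part in the choice, a low GSH mock or a high fly mock helps a feature to be chosen. The mock difference, fly mock minus GSH mock, ranged from -4.05 to 0.65 on the log2 scale with a median of 0.33. The mock means were more than 2-fold apart in members 1 and 2, and in 5.78% of window features above 0 in all libraries. Together the 13 features summed to 289 ± 29.4 TPM in the GSH mock and 894 ± 40.1 TPM in GSH-closed traps, and to 186 ± 6.40 TPM in the fly mock and 112 ± 7.5 TPM in fly-closed traps (SD, n = 3). Members 1, 2, 9 and 11 held 70.7% of the GSH mock sum and 41.2% of the fly mock sum. Without members 1 and 2 the mock sums were 159 and 166 TPM, and the closed sums 480 after GSH and 107 after flies. In bulk tissue, fewer cells of a type and less RNA per cell cannot be told apart.

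Fitted on all 45503 features abundant enough to test, limma on log2(TPM + 1) at a Benjamini-Hochberg adjusted p below 0.05 called all 13 members higher after GSH, where 14.7% of all features and 18.3% of tested window features were. It called 8 of 13 lower after flies, members 1, 2, 4, 6, 7, 9, 10 and 11, where 0.796% of all features and 1.29% of tested window features were. The rule used both contrasts, so these counts say only which members a test across all features would also have taken. Over all features limma called 36 higher after GSH and lower after flies, and 8 of them are members.

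The call after flies was near its threshold in most members called. The limma adjusted p was 0.000379 for member 11 and 0.0164 to 0.0469 for the others called. The call changed with the libraries in the fit, also where the estimate hardly moved. Member 2 had -0.71 with all libraries and -0.71 without fly mock replicate 2, where its call was lost. The call stood for 3, 1 and 4 members without fly mock replicate 1, 2 or 3. It stood for 3, 2 and 2 members without fly-closed replicate 1, 2 or 3, and for 5 without GSH mock replicate 1 or GSH-closed replicate 2. With no filter on low values it stood for 1 member, and with the fly groups alone in the fit for 3. The call after GSH held for 11 of 13 with no scaling between libraries and for at least 12 whichever library was left out. The difference between the responses, GSH change minus fly change, was called for all 13, where 9.22% of all features and 13.1% of tested window features had a higher GSH change. Its estimates ran from 1.27 ± 0.20 to 3.94 ± 0.61 (SE) on the log2 scale. GSH-closed traps exceeded fly-closed traps in all 13 by the same test, where 15.9% of all features and 24.5% of tested window features did. Both counts rest on libraries that chose the members and describe that choice. Between the mocks, which also took part in it, limma called 3 of 13 members, where 9.44% of all features and 19.1% of tested window features differed in either direction, so the share in members is near that of the window: member 6 was higher in the fly mock, and members 2 and 11 were higher in the GSH mock.

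The rule was then applied without 1 library at a time, to describe where the library that took no part in the choice lay. Without a GSH mock library 14 to 19 features were chosen, and the library left out was below all GSH-closed libraries in 63.2% to 85.7% of them, against 13.5% to 18.3% of window features. A GSH-closed library left out lay above all its mock libraries in 68.4% to 76.5% of the features chosen without it, against 14.3% to 14.8% of the window. On the fly side the margin over the window was smaller. A fly mock library left out was above all fly-closed libraries in 63.2% to 65.0% of chosen features, against 26.2% to 32.4%. A fly-closed library left out was below all fly mock libraries in 52.9%, 54.5% and 52.4% of chosen features for replicates 1, 2 and 3, against 43.3%, 27.9% and 22.2% of the window. The opposing libraries had taken part in the choice, so these shares are not free of it. In each GSH run the features so placed were as many as the members chosen, 12 or 13, so the share largely repeats the choice. Window features had not been chosen for any difference, so a lower share among them was nearly fixed.

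**Figure D4:**
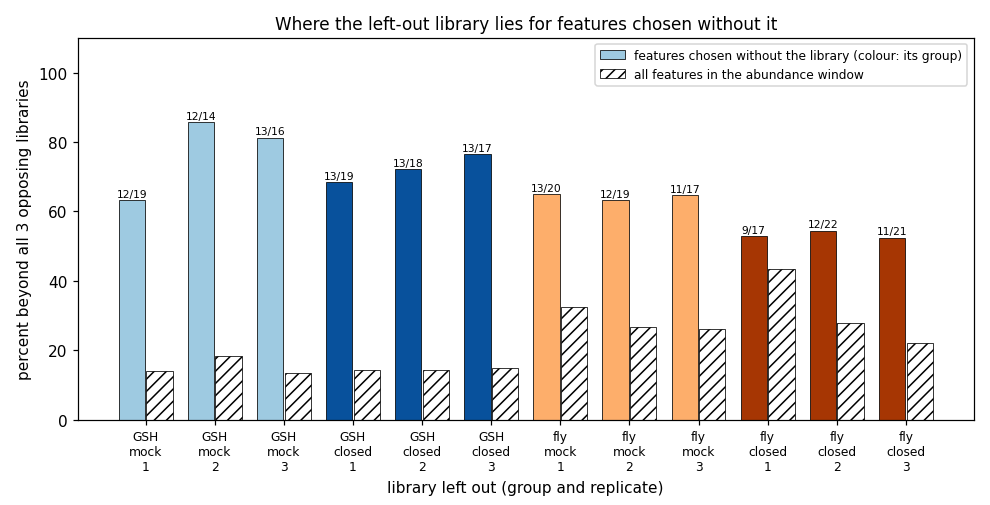
Share of features for which the left-out library lies beyond all 3 libraries of the opposing group, on the side the rule asks for, among features chosen without that library (filled bars, with counts above) and among all window features (hatched bars). The filled bars stand at 63.2% to 85.7% for the 6 libraries of the GSH experiment and at 52.4% to 65.0% for those of the fly experiment, and the hatched bars are higher in the fly experiment. The opposing libraries took part in choosing the features of the filled bars, so those shares are not free of the choice.

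Which features were chosen also moved with single libraries of the fly experiment. Of the 13 members, 8 were still chosen without fly-closed replicate 1, 11 without replicate 2 or 3, and 10 without any one fly mock library. Without a library of the GSH experiment 12 or 13 were. Members 1, 2, 3, 4 and 9 were chosen in every one of these 12 runs, while member 6 dropped out in 5 and member 13 in 4.

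The members' fly side moved with the composition of the libraries. When features seen in fly-closed traps alone were removed and TPM recomputed, 7 features met the rule, all of them members, and members 3, 5, 8, 11, 12 and 13 did not. When features seen in one group alone were removed from all 4 groups in the same way, 15 features met it, the 13 members among them. With overlap judged after scaling each library, 24 met it, again with all 13. The removal from fly-closed traps alone leaves in place the features seen in the fly mock alone, which held 10.2% to 12.8% of that group.

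Features of one assembly cluster can be fragments, copies or splice forms of related transcripts and may divide reads among themselves. Of the 13 members, 11 were the only feature listed with values from their assembly component, the next finer unit of the ID. The other 2 had 1 listed sister there. Sisters that are not listed cannot be seen here. Summing TPM over components left the TPM of those 11 as they were. Their changes shifted slightly with the recomputed median, as from 2.00 to 2.01 after GSH in member 1. In member 13 the fly change went from -0.51 to -0.50, at the limit, and the rule was still met. In all, 13 components met the rule, among them those of 12 members. Of the 2 members with a sister, the component of member 12 still met the rule. That of member 5 did not, with a component change of 1.37 after GSH and -0.33 after flies. Its sister went from 7.64 to 18.7 TPM after GSH and from 8.69 to 9.23 TPM after flies.

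In the wider clusters, 7 members had 12 further features abundant enough to test. The rule had been applied to these too and had left them out, so their values are not independent of it. Of the 12, 5 had a change of at least 0.5 after GSH, as did 26.3% of all features tested, and 1 had one of at most -0.5, as did 16.1%. After flies 0 of 12 had a change of at most -0.5, where 8.06% of all features tested did, and 1 had one of at least 0.5, where 14.9% did. Over the 12 the fly change had a median of 0.02 and a lowest value of -0.39. With so few features these shares are not set apart from those of all features. The cluster of member 12 showed the widest range. One of its features went from 33.8 to 180 TPM after GSH and from 4.72 to 17.7 TPM after flies, changes of 2.72 and 1.73, and another went from 12.4 to 6.35 TPM and from 10.3 to 8.98 TPM. In the cluster of member 2 the other tested feature had 81.6 and 71.9 TPM in GSH mock and closed traps, and 60 and 52.8 TPM around flies. The 21.6-fold gap between the mocks seen for member 2 was thus not shared by its cluster mate.

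Within groups the members did not vary together on average. After subtracting group means of log2(TPM + 1), the 78 pairs of members had a mean correlation of 0.02 across the 12 libraries, and all pairs of window features one of 0.08. These points share their libraries and their totals, so the values are a description. A low mean can hide positive and negative pairs that cancel, and the spread over pairs was not examined. In fly-closed replicate 1, 3 of 13 members were above their group mean, and in replicates 2 and 3 it was 10 and 8. The median deviation of the members was -0.10 in replicate 1, and that of all window features -0.07 in the same library, where features seen in fly-closed traps alone held the 17.6% of TPM given above. The median SD of the members within groups was 0.23 for GSH mock and 0.20 for fly mock traps, against 0.18 and 0.14 for window features, and 0.11 and 0.12 in GSH-closed and fly-closed traps, against 0.12 and 0.13.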

How the data were processed

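RNA of 12 leaf trap libraries was sequenced. The submitters' processing notes list RSEM, DESeq2 version 1.16.1, cutadapt and Trimmomatic without saying what each did. The deposited values are a rescaled signal and no counts: per library, 100.0% of the nonzero values under 60 equalled a whole multiple of its sum divided by 1e+08, within 0.0051, and at most 2.25% were whole within 0.005. Each value was divided by its library sum and multiplied by 1e+06, and the result was taken to be TPM; whether it was corrected for feature length was not tested.

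Members followed the rule given with the values above. The rule speaks of one mean mock TPM, which was read as the mean over both mock groups. Asking it of each mock, an alternative not planned beforehand, gave 9 features. For tests, features at 0.526 TPM or more in at least 3 libraries were scaled by trimmed means of their log ratios (30% of ratios and 5% of abundances trimmed at each end), and log2(TPM + 1) was fitted with limma version 3.58.1 (trend and robust options) in R version 4.3.3, with 4 groups and no block. A simulation covered only the comparison of GSH-closed with GSH mock traps. Changes were planted only in features with a mean log2(TPM + 1) of at least 3. Members 6 and 7, with means of 5.98 and 5.06 TPM, lie below that level. The simulation recovered 71 of 100 changes of 1 and 88 of 100 changes of 2 on the log2 scale, with 4 false calls. It held no smaller change and no fly comparison, so how often fly changes like those of most members would be found was not tested. Of the window features, 2100 did not pass the filter, of which 2089 were above 0 in only 1 or 2 libraries; all 13 members passed. The members, lists and tests were chosen with earlier results of these data known. The IDs printed are the 2 members with the largest smaller change, then the most abundant and the one with the widest smaller gap between groups among the rest. No gene list could be applied, since no table of gene names was used here.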

Additional observations from a re-analysis of the deposited data

Results flagged for a closer look

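The difference between the response to GSH and the response to flies passed limma's test, at a Benjamini-Hochberg adjusted p below 0.05 over all features, for 13 of 13 members, and every member had the higher change after GSH. For the named members the difference on the log2 scale was 3.94 for TRINITY_DN9692_c0_g1, 2.79 for TRINITY_DN7782_c1_g1, 3.14 for TRINITY_DN97205_c0_g1 and 2.46 for TRINITY_DN30539_c0_g2. The members were chosen for this difference, so it describes the choice.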

How the results depend on the processing

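The rule met 13 features. It met 31 with mock TPM from 1, 40 with no abundance window, 1 with both changes of at least 1, 220 with overlap not asked, 7 with features seen in fly-closed traps alone removed, and 24 with overlap judged after scaling, an alternative added after seeing the data. Leaving out 1 library gave 14 to 22, with 20 without fly mock replicate 1, and 22 and 21 without fly-closed replicates 2 and 3. Of the members, limma called 12 to 13 higher after GSH, 1 to 8 lower after flies, 13 to 13 in the difference between responses, 13 to 13 between the closed groups and 2 to 5 between the mocks when 1 library was left out, the 5 without GSH-closed replicate 3. Lower after flies were 1 with no filter on low values and 3 with only the groups compared in the fit, against 8; between the mocks 1 and 1, against 3. With the replicate number as a block, 4 were called lower after flies. Residuals of same-numbered libraries had correlations from -0.01 to 0.01, and 3 of 12 libraries were closest to their own number. No pairing by number was thus seen, which does not show that there was none. No named change reversed under the alternatives run. The rule had asked for groups that do not overlap, so this outcome was nearly fixed by the choice. Of the fly calls of the named members in alternative fits, 25 were lost and 47 kept. With features seen in fly-closed traps alone removed, the fly change of TRINITY_DN30539_c0_g2 was -0.48, short of the limit of -0.5. The cause of these shifts was not tested, except that fewer libraries enter when one is left out. The unknown read depth limits what the low members can show.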
